A study of Mus musculus with 18 samples.

Results

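Akr1c18, Slc22a3, Mylk, Gpx8, Fgf10, Frzb, Aldh1a3 and C2cd4a are 8 of the 23418 genes in a polyA RNA-seq table of mouse leukemia cells, and none of them is a homeobox gene. They were picked on their own readout, because their RNA fell by a large amount when the cells were given MI-2-2, which blocks the contact between menin and MLL. Their falls with MI-2-2 are therefore given below as a description, with no test. The cells were C57BL/6 mouse leukemia cells carrying one of the fusion constructs MLL-AF9, MLL-AF6 and MLL-AF1p. The labels do not say how many lines or clones stand for each construct. Cultures received 6 µM MI-2-2 or DMSO alone over 6 days, both at 0.25% DMSO, with a change of medium and compound on day 3. There were 3 libraries per group and 18 over the 6 groups, and levels are the authors' RPKM (counted reads per kilobase of gene, scaled to the size of the library). The labels do not say that the replicates are separate cultures, so the p-values reflect spread among these libraries alone, and that spread may be technical.

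Menin is a nuclear protein that binds the amino-terminal part of MLL, which the fusion proteins keep, and it holds MLL and its fusions at chromatin. The best known genes lost when this contact is blocked are the late Hoxa genes and Meis1. The 8 genes here have other roles. Akr1c18, Aldh1a3 and Gpx8 are enzymes, Slc22a3 is a membrane transporter, Fgf10 and Frzb are secreted signalling proteins, Mylk is a kinase, and C2cd4a is a small nuclear protein with a C2 domain.

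RefSeq promoter windows, from 250 bases before to 50 bases after a start site on GRCm38.p6, were matched for 7 of the 8 genes. Each was searched on both strands for 7 short motifs of factors known in myeloid cells or at promoters: MEIS (TGACAG), HOX-PBX (TGATTNAT), RUNX (TGTGGT), MYB (TAACNG), C/EBP (TTGCNNAA), ETS/PU.1 (GAGGAA) and the TATA box (TATAAA). The 4 windows that hold any of these are printed first, 5′ to 3′ on the strand of the gene, with the matches in capitals. Frzb follows as the gene whose level differed most between the fusion constructs, and its window holds no match.
Akr1c18 (chr13:4150597-4150896, minus strand): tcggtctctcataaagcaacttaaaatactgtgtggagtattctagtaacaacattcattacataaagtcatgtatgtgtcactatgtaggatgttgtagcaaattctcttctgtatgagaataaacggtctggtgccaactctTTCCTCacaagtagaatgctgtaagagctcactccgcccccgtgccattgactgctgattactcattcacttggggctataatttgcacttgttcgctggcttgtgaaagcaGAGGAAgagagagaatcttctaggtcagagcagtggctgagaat
Slc22a3 (chr17:12507655-12507954, minus strand): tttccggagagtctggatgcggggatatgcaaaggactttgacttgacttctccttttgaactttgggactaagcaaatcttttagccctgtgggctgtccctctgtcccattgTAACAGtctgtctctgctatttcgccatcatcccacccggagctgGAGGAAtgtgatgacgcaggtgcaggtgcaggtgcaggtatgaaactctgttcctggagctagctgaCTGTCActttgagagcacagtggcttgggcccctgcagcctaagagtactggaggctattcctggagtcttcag
Mylk (chr16:34784700-34784999, plus strand): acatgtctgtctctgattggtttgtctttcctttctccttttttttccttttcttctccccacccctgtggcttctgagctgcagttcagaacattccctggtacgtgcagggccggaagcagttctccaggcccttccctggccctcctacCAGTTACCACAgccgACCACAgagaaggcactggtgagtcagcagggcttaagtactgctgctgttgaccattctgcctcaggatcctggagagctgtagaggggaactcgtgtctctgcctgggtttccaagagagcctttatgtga
C2cd4a (chr9:67832281-67832580, minus strand): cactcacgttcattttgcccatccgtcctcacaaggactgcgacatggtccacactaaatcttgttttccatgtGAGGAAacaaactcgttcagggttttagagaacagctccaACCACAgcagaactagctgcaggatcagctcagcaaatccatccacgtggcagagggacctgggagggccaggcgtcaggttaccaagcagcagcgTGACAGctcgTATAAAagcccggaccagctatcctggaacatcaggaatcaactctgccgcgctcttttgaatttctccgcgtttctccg
Frzb (chr2:80447347-80447646, minus strand): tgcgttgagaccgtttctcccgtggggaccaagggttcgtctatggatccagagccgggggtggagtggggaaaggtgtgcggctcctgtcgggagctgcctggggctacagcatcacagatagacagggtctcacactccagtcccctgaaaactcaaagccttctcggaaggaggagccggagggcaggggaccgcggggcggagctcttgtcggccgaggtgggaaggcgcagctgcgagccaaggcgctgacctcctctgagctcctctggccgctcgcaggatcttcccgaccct

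The C2cd4a window holds 4 different motifs. Relative to the start site, its TATA box begins at -30 and its MEIS motif at -40, with a RUNX motif at -136 and an ETS/PU.1 motif at -176. Slc22a3 has a MEIS motif at -24, an ETS/PU.1 motif at -91 and a MYB motif at -136. In Mylk, whose window lies at a start inside the gene, a MYB motif and a RUNX motif share 1 base in the first run of capitals, and a further RUNX motif lies at -83. Akr1c18 has ETS/PU.1 motifs at -106 and at base 7 of the transcript. Over all 32851 promoter windows searched, 19.2% hold the MEIS motif, 16.8% the RUNX motif, 23.3% the MYB motif, 28.3% the ETS/PU.1 motif and 13.6% the TATA box, against 2, 2, 2, 3 and 1 of the 7 windows here. HOX-PBX (3.22% of all windows) and C/EBP (10.8%) were in none of the 7. The windows of Frzb, C2cd4a and Gpx8 hold 20, 14 and 13 CpG sites and those of Fgf10, Akr1c18, Slc22a3 and Mylk 10, 5, 5 and 4, beside a median of 7 over all windows. A match is a run of letters in the window and is no evidence of binding.

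The libraries held 21.18 to 56.3 M counted reads (M, mega), with those of MLL-AF1p deepest at 48.88 M or more, and 3 reads of Akr1c18 correspond to 0.0451 to 0.12 RPKM, depending on the library. All 8 genes reached 1 RPKM in at least 3 DMSO libraries, which put them among the 11238 genes tested, and that filter alone favours genes that are high in some group. All 7 blood cell markers listed (Ptprc, Spi1, Cd53, Laptm5, Coro1a, Rac2, Was) were present, with a sum of 1230 to 2140 RPKM per library. Most markers listed for other tissues and cell types were low. Of 10 stromal fibroblast markers 9 stayed under 1 RPKM in every library and Lum was listed at 0, with the exception of Thy1, which reached 1300 RPKM and is also carried by immature blood cells and T cells. With Thy1, the sum of this list went from 704 to 1300 RPKM under DMSO to 112 to 215 with MI-2-2 in MLL-AF6 cells, from 625 to 670 to 219 to 256 in MLL-AF1p cells, and from 2.64 to 7.15 to 1.27 to 1.64 in MLL-AF9 cells. All 6 epithelial markers stayed under 1 RPKM. Of the 6 smooth muscle markers 2 stayed under 1 RPKM, Acta2 was the highest at up to 5.4 RPKM, and the list summed to 7.7 to 12.5 RPKM. Of the 6 endothelial markers 4 stayed under 1 RPKM, and Pecam1 was the highest at up to 84.0 RPKM, in a list that summed to 80 to 84.5 RPKM under DMSO and 40.4 to 42.3 with MI-2-2 in MLL-AF1p. The means of Pecam1 went down with MI-2-2 in MLL-AF9, MLL-AF6 and MLL-AF1p (11.1 to 4.31, 61 to 24.6 and 81.5 to 39.1 RPKM). Those of Vwf went up (1.21 to 3.82, 0.501 to 10.2 and 0.487 to 2.53 RPKM). In the remaining lists, 8 of 9 mast cell and basophil, 5 of 6 B cell, 5 of 6 T cell and 6 of 8 erythroid and megakaryocyte markers stayed under 1 RPKM.

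**Figure D1:**
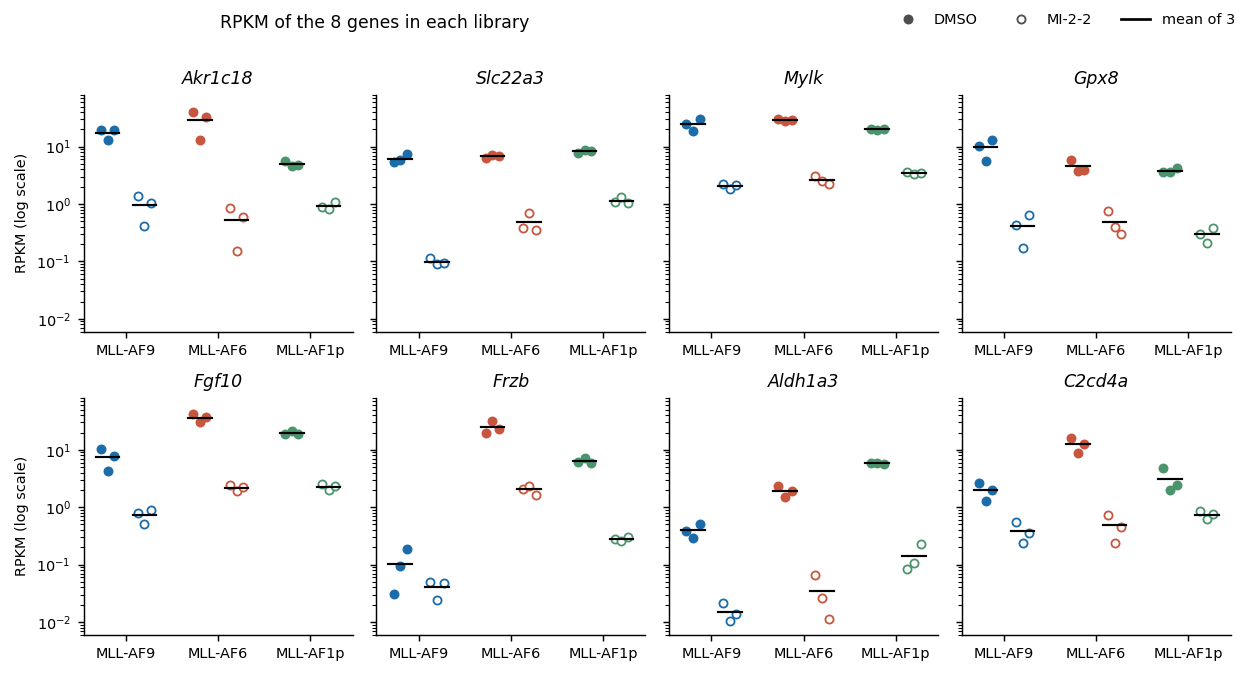
RPKM of each of the 8 genes on a log axis, by construct, with filled points for the 3 DMSO libraries, open points for the 3 MI-2-2 libraries and a bar for their mean. The MI-2-2 points lie below all DMSO points of the same construct except for Frzb in MLL-AF9, where the DMSO libraries reach only 0.188 RPKM.

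Together the 8 genes took 285 ± 65.1 reads per M counted reads in MLL-AF9 DMSO libraries, 556 ± 40.9 in MLL-AF6 cells and 329 ± 6.74 in MLL-AF1p cells (SD, n = 3). With MI-2-2 they took 22.3 ± 3.6, 40.2 ± 5.28 and 45.4 ± 2.63. These are sums of reads, in which Mylk, the longest of the 8 at 7.841 kb, weighs most in every group, followed by Fgf10. In this bulk RNA, fewer cells that express a gene and less RNA per cell cannot be told apart. MI-2-2 libraries were below all DMSO libraries of their construct except for Frzb in MLL-AF9. Because the genes were picked for this fall, nothing is read from that, and overlap was not counted over all genes. By another measure, limma at an adjusted p under 0.05, 27.9% of all genes tested fell in MLL-AF9 cells, 38.9% in MLL-AF6 cells and 26.3% in MLL-AF1p. Median centring of the libraries moved the share of calls that were rises in MLL-AF6 from 31.6% to 41.9%. In MLL-AF9 it moved that share from 50.5% to 41.2%, and in MLL-AF1p from 42.1% to 49.3%. On the scale of mean log2(RPKM + 0.5), used for all log2 differences here, the median of the 8 genes was -2.96 in MLL-AF9 cells, -3.28 in MLL-AF6 cells and -2.43 in MLL-AF1p cells, against medians over all genes of -0.001, -0.159 and -0.058. This scale understates the change of low genes, so the percent of the DMSO mean that remained is given beside it.

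Akr1c18 encodes the mouse hydroxysteroid dehydrogenase that inactivates progesterone. In MLL-AF9 cells its DMSO libraries held 19.7, 13.2 and 19.3 RPKM and its MI-2-2 libraries 1.38, 0.417 and 1.04. MLL-AF6 cells went from 40.5, 13.1 and 32.4 RPKM to 0.856, 0.154 and 0.595, the lowest value resting on 4 reads. MLL-AF1p cells went from 5.55, 4.66 and 4.85 RPKM to 0.881, 0.805 and 1.09. The groups did not overlap in any construct, and replicate 2 was the lowest library of all 6 groups. The MI-2-2 mean was 5.44% of the DMSO mean in MLL-AF9 cells, 1.87% in MLL-AF6 cells and 18.4% in MLL-AF1p cells. The log2 differences were -3.67 ± 0.36, -4.74 ± 0.36 and -1.96 ± 0.36 (SE), which placed Akr1c18 as the second largest fall of 11238 genes in MLL-AF9 cells, the largest in MLL-AF6 cells and number 41 in MLL-AF1p cells.

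Aldh1a3 encodes a retinaldehyde dehydrogenase that makes retinoic acid. It was low in MLL-AF9 under DMSO, at 0.383, 0.293 and 0.504 RPKM, and its 3 MI-2-2 libraries there held 2, 1 and 1 reads (0.0212, 0.0103 and 0.0138 RPKM). In MLL-AF6 cells 2.38, 1.53 and 1.9 RPKM under DMSO stood against 0.0669, 0.0267 and 0.0114 with MI-2-2. In MLL-AF1p, the construct with the highest Aldh1a3, 5.93, 6.01 and 5.59 RPKM stood against 0.0831, 0.108 and 0.225. No MI-2-2 library reached the lowest DMSO library of its construct. From the pooled reads, 3.76% of the DMSO level remained in MLL-AF9 cells (4 reads against 101, exact conditional binomial 95% interval 1.0% to 9.92%). In MLL-AF6 cells 1.92% remained (10 reads against 575, 0.917% to 3.56%). These intervals cover counting error only, leave out the spread among libraries and are no test of the falls. In MLL-AF1p the MI-2-2 mean was 2.38% of the DMSO mean. The log2 differences were -0.79, -2.17 and -3.32, each with an SE of 0.13, and their order follows the DMSO level because the added 0.5 RPKM limits the fall that a low gene can show.

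Gpx8 encodes a glutathione peroxidase of the endoplasmic reticulum membrane. MLL-AF9 cells held 10.1, 5.67 and 13.3 RPKM under DMSO and 0.427, 0.173 and 0.649 with MI-2-2. MLL-AF6 cells held 5.9, 3.78 and 3.97 RPKM against 0.768, 0.402 and 0.306. MLL-AF1p cells held 3.57, 3.68 and 4.2 RPKM against 0.297, 0.21 and 0.387. All 9 MI-2-2 libraries lay under 1 RPKM and all 9 DMSO libraries above 3. The share of the DMSO mean that remained was 4.28%, 10.8% and 7.8% in MLL-AF9, MLL-AF6 and MLL-AF1p, with log2 differences of -3.44, -2.35 and -2.44 (SE 0.26 each).

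Slc22a3 encodes an organic cation transporter that moves monoamines such as histamine and serotonin across the membrane. Under DMSO it was close to even, at 5.36, 5.76 and 7.4 RPKM in MLL-AF9 cells, 6.45, 7.16 and 6.84 in MLL-AF6 cells and 7.65, 8.74 and 8.55 in MLL-AF1p cells. With MI-2-2 the MLL-AF9 libraries held 0.114, 0.0902 and 0.0942 RPKM, from 7 to 11 reads each. The MLL-AF6 libraries held 0.381, 0.7 and 0.356, and the MLL-AF1p libraries 1.09, 1.33 and 1.03. The treated levels thus formed 3 steps with no overlap between constructs, and 1.61%, 7.03% and 13.8% of the DMSO mean remained. The log2 differences were -3.47, -2.92 and -2.42 (SE 0.13 each).

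Mylk encodes the calmodulin-dependent kinase that phosphorylates myosin light chains. It was the most even of the 8 genes under DMSO after Slc22a3, with 25.2, 19.0 and 30.1 RPKM in MLL-AF9 cells, 30.7, 27.8 and 29.5 in MLL-AF6 cells and 20.5, 19.7 and 20 in MLL-AF1p cells. With MI-2-2, MLL-AF9 libraries held 2.27, 1.85 and 2.16 RPKM, MLL-AF6 libraries 3.09, 2.51 and 2.26, and MLL-AF1p libraries 3.68, 3.29 and 3.48. It was the only one of the 8 that stayed above 1 RPKM in all 18 libraries. The share of DMSO that remained was 8.46%, 8.93% and 17.3%, with log2 differences of -3.26, -3.27 and -2.37 (SE 0.13 each).

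Fgf10 encodes a secreted fibroblast growth factor that signals through Fgfr2 in developing epithelia. Its DMSO libraries held 10.5, 4.32 and 7.92 RPKM in MLL-AF9 cells, 41.7, 31.1 and 36.7 in MLL-AF6 cells and 18.5, 21.4 and 18.9 in MLL-AF1p cells, 3 levels with no overlap. MI-2-2 libraries held 0.784, 0.507 and 0.898 RPKM in MLL-AF9 cells, 2.45, 1.91 and 2.23 in MLL-AF6 cells and 2.49, 1.96 and 2.32 in MLL-AF1p cells. In each construct the highest MI-2-2 library lay below the lowest DMSO library, and 9.62%, 6.02% and 11.5% of the DMSO mean remained. The log2 differences were -2.65, -3.77 and -2.87 (SE 0.22 each).

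Frzb encodes a secreted frizzled-related protein that binds Wnt ligands and holds them from their receptors. In MLL-AF9 it was barely detected in either treatment, with 0.0308, 0.0933 and 0.188 RPKM under DMSO (2, 6 and 16 reads) and 0.0496, 0.024 and 0.0484 with MI-2-2 (4, 2 and 3 reads). In MLL-AF6 it stood at 19.7, 31.5 and 23.4 RPKM under DMSO and 2.11, 2.38 and 1.65 with MI-2-2. MLL-AF1p cells held 6.04, 7.15 and 5.98 RPKM against 0.278, 0.259 and 0.303. The groups overlapped in MLL-AF9, where the pooled MI-2-2 level was 35.6% of DMSO (9 reads against 24). Its counting interval of 14.6% to 79.3% leaves out the spread among libraries, so no fall of Frzb in MLL-AF9 is read from it. The groups did not overlap in the other 2 constructs, where 8.23% and 4.38% remained. The log2 differences were -0.15, -3.30 and -3.14 (SE 0.15 each), which ranked Frzb number 4071 from the lowest in MLL-AF9 cells, 9 in MLL-AF6 cells and 5 in MLL-AF1p cells.

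C2cd4a encodes a nuclear protein known from human endothelial cells exposed to inflammatory cytokines. MLL-AF9 cells held 2.63, 1.28 and 2.01 RPKM under DMSO and 0.562, 0.234 and 0.349 with MI-2-2. For MLL-AF6 the values were 16.3, 8.69 and 12.8 RPKM against 0.746, 0.235 and 0.461. For MLL-AF1p they were 4.74, 1.97 and 2.48 RPKM against 0.852, 0.616 and 0.772. The MI-2-2 libraries lay under 1 RPKM in every construct, below all DMSO libraries, and 19.4%, 3.83% and 24.4% of the DMSO mean remained. The log2 differences of -1.47, -3.73 and -1.44 (SE 0.29 each) were largest where the DMSO level was highest.

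The fusion constructs were then compared with each other, a contrast the choice of genes did not use directly, although a gene had to be well expressed under DMSO somewhere to show a large fall. With limma and Benjamini-Hochberg adjustment over all 11238 genes, 5 of the 8 genes differed between MLL-AF6 and MLL-AF9 under DMSO, beside 53.6% of all genes. Between MLL-AF1p and MLL-AF9 6 differed (65.1% of all genes), and between MLL-AF1p and MLL-AF6 6 differed (52.5%). With 8 genes these counts are near the shares over all genes, and nothing is read from them. Frzb held the widest difference, 5.37 ± 0.15 on the log2 scale above MLL-AF9 in MLL-AF6 (adjusted p = 2.14e-13) and 3.52 ± 0.15 in MLL-AF1p (adjusted p = 3e-11), with every library of both constructs above every MLL-AF9 library. Its mean in MLL-AF6 was 24.9 ± 6.01 RPKM against 6.39 ± 0.658 in MLL-AF1p, a log2 difference of -1.86 for MLL-AF1p minus MLL-AF6 (adjusted p = 2.7e-07).

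Fgf10 and C2cd4a shared the same top construct under DMSO. Fgf10 stood in the order MLL-AF6, MLL-AF1p, MLL-AF9 with means of 36.5, 19.6 and 7.59 RPKM, and all neighbours in that order differed (adjusted p = 0.00388 for MLL-AF1p against MLL-AF6 and 4.99e-05 for MLL-AF1p against MLL-AF9). C2cd4a was higher in MLL-AF6 cells (12.6 RPKM) than in MLL-AF9 cells (1.97 RPKM, adjusted p = 4.76e-06) and MLL-AF1p (3.06 RPKM, adjusted p = 7.17e-05). MLL-AF1p and MLL-AF9 were not separated for C2cd4a (log2 difference 0.49 ± 0.29, adjusted p = 0.148), but were in a fit that pairs same-numbered libraries (adjusted p = 0.00346). Aldh1a3 was highest in another construct, with MLL-AF1p (5.84 RPKM) above MLL-AF6 (1.94 RPKM, adjusted p = 7.4e-07). Its mean in MLL-AF9 was lowest (0.393 RPKM, no p given).

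Akr1c18 and Gpx8 were not highest in the same construct. Akr1c18 was lower in MLL-AF1p (5.02 RPKM) than in MLL-AF6 (28.7 RPKM, adjusted p = 0.000103) and MLL-AF9 (17.4 RPKM, adjusted p = 0.000689). MLL-AF6 and MLL-AF9 were not separated for Akr1c18 (adjusted p = 0.179). They were with MLL-AF6 DMSO replicate 2 left out (adjusted p = 0.00837) and in a fit that pairs same-numbered libraries (adjusted p = 0.0314). Gpx8 was higher in MLL-AF9 cells (9.71 RPKM) than in MLL-AF6 cells (4.55 RPKM, adjusted p = 0.00614) and MLL-AF1p (3.82 RPKM, adjusted p = 0.00115), and the last pair was not separated (-0.20 ± 0.26, adjusted p = 0.536). Mylk and Slc22a3 spanned no more than 1.46 and 1.35 times from the lowest to the highest construct mean. Mylk was lower in MLL-AF1p than in MLL-AF6 by 0.53 on the log2 scale (-0.53 ± 0.13, adjusted p = 0.00315). Its differences from MLL-AF9 were 0.26 for MLL-AF6 (adjusted p = 0.1, or 0.0121 with MLL-AF9 DMSO replicate 3 left out) and -0.27 for MLL-AF1p (adjusted p = 0.0803, or 0.00208 with MLL-AF9 DMSO replicate 2 left out, 0.019 with median centring and 0.0338 with quantile normalization). Slc22a3 was higher in MLL-AF1p than in MLL-AF9 by 0.41 ± 0.13 (adjusted p = 0.0116), a call lost without MLL-AF9 DMSO replicate 1 (adjusted p = 0.0539) and under quantile normalization (adjusted p = 0.0774). The step from MLL-AF6 to MLL-AF1p was not separated (0.27, adjusted p = 0.096), but had an adjusted p of 0.0461 without MLL-AF6 MI-2-2 replicate 2, which enters through the shared spread.

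**Figure D2:**
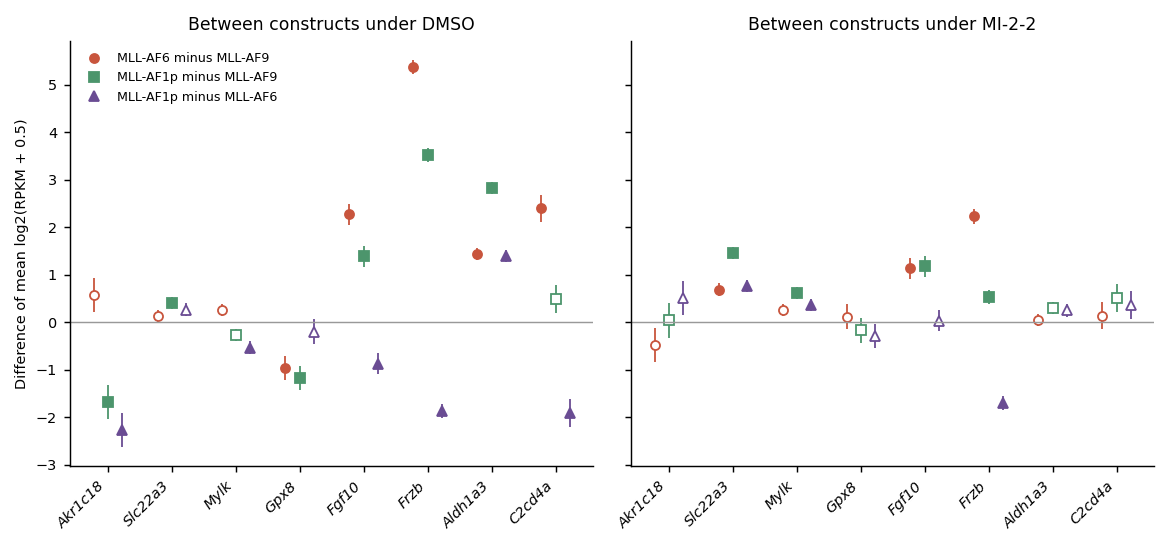
Differences of mean log2(RPKM + 0.5) between the fusion constructs for each gene, under DMSO on the left and under MI-2-2 on the right. Bars are 1 SE and filled symbols passed an adjusted p of 0.05; Frzb spans the widest range in both panels, from 5.37 to -1.86 under DMSO.

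With MI-2-2, 3 of the 8 genes differed between MLL-AF6 and MLL-AF9 beside 43.1% of all genes, 4 between MLL-AF1p and MLL-AF9 beside 54.1%, and 3 between MLL-AF1p and MLL-AF6 beside 52.5%. The split of calls over all genes depended on scaling: the share that were higher in MLL-AF6 than in MLL-AF9 was 30.2% and became 47% with median centring, and the share that were higher in MLL-AF1p than in MLL-AF6 was 66.8% and became 55.8% with quantile normalization. Slc22a3 was the gene with residual levels most clearly ordered, 0.0993 RPKM in MLL-AF9 cells, 0.479 in MLL-AF6 cells (adjusted p = 0.000532 against MLL-AF9) and 1.15 in MLL-AF1p cells (adjusted p = 0.000176 against MLL-AF6). Frzb kept its order, with MLL-AF6 at 2.05 RPKM, MLL-AF1p at 0.28 and MLL-AF9 at 0.0407. MLL-AF6 was above MLL-AF9 for Frzb by 2.23 ± 0.15 on the log2 scale (adjusted p = 9.15e-09), and MLL-AF1p by 0.53 (adjusted p = 0.0071), the latter lost with a pseudocount of 1 (adjusted p = 0.0622) or quantile normalization (adjusted p = 0.169). Treated Fgf10 was higher in MLL-AF6 cells (2.2 RPKM, adjusted p = 0.000644) and MLL-AF1p (2.26 RPKM, adjusted p = 0.000359) than in MLL-AF9 cells (0.73 RPKM), and the former pair was not separated (adjusted p = 0.91).

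Treated Mylk was higher in MLL-AF1p (3.48 RPKM) than in MLL-AF9 (2.09 RPKM, adjusted p = 0.00094), and MLL-AF6 and MLL-AF9 were not separated (0.26, adjusted p = 0.12, but 0.0356 without MLL-AF9 DMSO replicate 2, 0.036 with median centring and 0.0208 with quantile normalization). Its difference between MLL-AF1p and MLL-AF6 (2.62 RPKM, adjusted p = 0.0303) was lost without any 1 of 4 libraries: MLL-AF1p MI-2-2 replicate 1 (adjusted p = 0.0925) or 3 (0.0661), and MLL-AF6 MI-2-2 replicate 2 (0.0731) or 3 (0.132). It was also lost with median centring (adjusted p = 0.0617) and quantile normalization (0.0709). Akr1c18, Gpx8, Aldh1a3 and C2cd4a passed in none of the 3 treated comparisons. For Akr1c18 and Gpx8 the adjusted p ran from 0.231 to 0.941 over these 3 comparisons. Aldh1a3 in MLL-AF1p against MLL-AF9 was near the threshold (log2 difference 0.30 ± 0.13, adjusted p = 0.0515), and passed without MLL-AF1p MI-2-2 replicate 1, MLL-AF6 DMSO replicate 1 or 2, or MLL-AF9 DMSO replicate 2 or 3 (adjusted p from 0.0291 to 0.0467). It also passed with a pseudocount of 0.1 (1.01, adjusted p = 0.00208), with voom on whole reads (2.66, adjusted p = 0.00187) with median centring (0.33, adjusted p = 0.0305) and with a constant prior variance (adjusted p = 0.0367), but not with a pseudocount of 1 (0.16, adjusted p = 0.141) or quantile normalization (0.06, adjusted p = 0.646). Aldh1a3 in MLL-AF1p against MLL-AF6 (0.25, adjusted p = 0.105) passed with that pseudocount (0.80, adjusted p = 0.01) and with voom (1.87, adjusted p = 0.0109). C2cd4a in MLL-AF1p against MLL-AF6 had an adjusted p of 0.286, and of 0.0209 (log2 difference 0.37) when same-numbered libraries, which deviate together in these groups, were paired with a replicate block.

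Most markers of maturing myeloid cells moved with the falls. The sum of 9 monocyte and macrophage markers went from 175 to 243 RPKM under DMSO to 1370 to 1720 RPKM with MI-2-2 in MLL-AF9 cells, from 276 to 376 up to 2230 to 2980 in MLL-AF6 cells, and in the same way from 143 to 151 up to 608 to 667 in MLL-AF1p cells. The sum of 9 late neutrophil markers, carried by S100a8 and S100a9, went from 2870 to 4060 RPKM up to 24700 to 28800 in MLL-AF9 cells, from 2270 to 3120 up to 18700 to 20500 in MLL-AF6 cells, with a change from 3370 to 3820 up to 30800 to 35700 in MLL-AF1p cells. Some members of these 2 lists did not pass by limma. In MLL-AF1p these were Mmp9 (0.10, adjusted p = 0.736) and Cxcr2 (0.18, adjusted p = 0.469). Fcgr1 did not pass in MLL-AF9 (-0.46, adjusted p = 0.489) or MLL-AF6 (0.46, adjusted p = 0.485), nor did Cd14 in MLL-AF6 (0.97, adjusted p = 0.0664). The sum of 7 early myeloid markers, carried by Elane, Prtn3 and Ctsg, went from 5810 to 8800 RPKM down to 2090 to 2310 in MLL-AF9 cells and from 4970 to 5290 down to 2060 to 2600 in MLL-AF6 cells, but overlapped in MLL-AF1p at 6040 to 8500 and 6660 to 7130. Members of this list went different ways. Myb fell in all 3 constructs (-1.72, -1.36 and -0.40, highest adjusted p = 0.00196), Kit rose in MLL-AF9 and MLL-AF6 (0.36 and 0.38, adjusted p = 0.0195 and 0.0158), and Mpo rose in MLL-AF6 and MLL-AF1p (3.27 and 2.76, adjusted p = 5.88e-07 and 6.18e-06). The part of these marker changes in the falls of the 8 genes was not tested.

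The other genes of the pathways in which the 8 take part were read from 8 lists of family members and partners, none of them a member. Of 91 such genes tested, 24 fell and 30 rose with MI-2-2 in MLL-AF9, 26.4% and 33%, beside 27.9% and 28.5% of all genes. In MLL-AF6 27 fell and 23 rose (29.7% and 25.3%, beside 38.9% and 18%), and in MLL-AF1p 26 fell and 17 rose (28.6% and 18.7%, beside 26.3% and 19.1%). Shares of falls were thus near or below those of any gene tested. The 7 lists with tested genes had median log2 differences of -0.34 to 0.17, beside the medians over all genes given above.

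**Figure D3:**
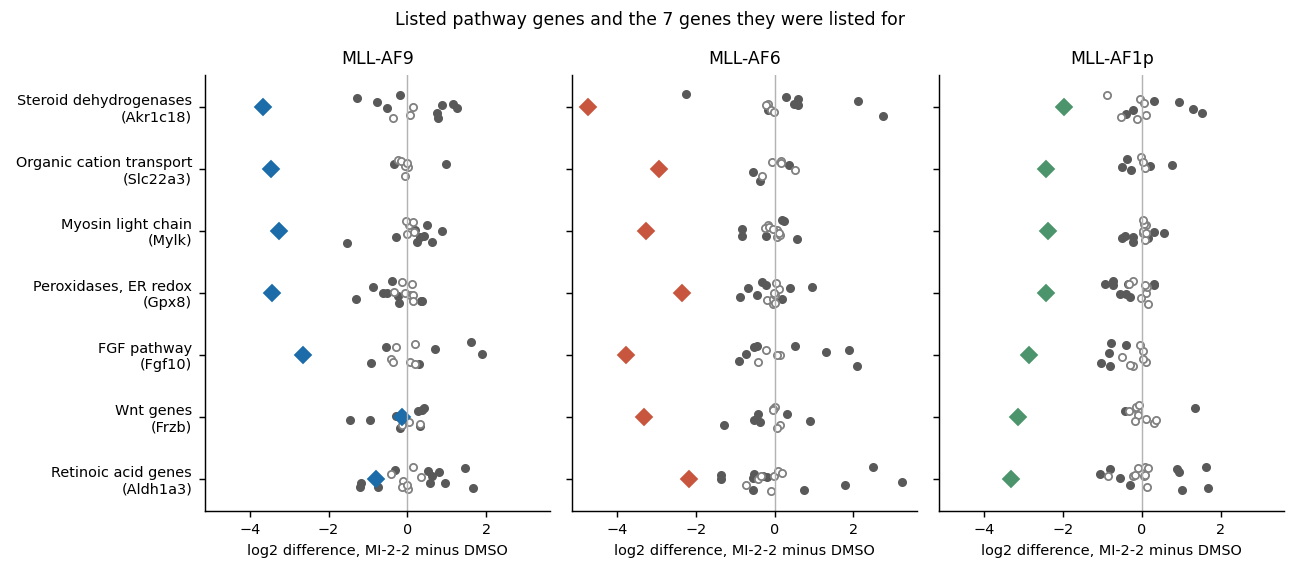
Log2 difference, MI-2-2 minus DMSO, of each listed pathway gene in each construct, filled where the adjusted p was under 0.05, with a coloured diamond for the gene the list was made for. The diamonds lie below every listed gene except for Frzb and Aldh1a3 in MLL-AF9, at -0.15 and -0.79. Their genes were picked for large falls, so nothing is read from that place. The C2cd4 family has no row because none of its 3 listed genes passed the filter.

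The list for Akr1c18 holds steroid dehydrogenases, reductases and aldo-keto reductases, and its genes moved in both directions. Of 12 tested, 5 rose and 4 fell in MLL-AF9 cells, 6 rose and 2 fell in MLL-AF6 cells, and 4 rose and 2 fell in MLL-AF1p cells (medians 0.11, 0.14 and 0.01). Only Akr1c12 and Akr1c13 among those tested are of the Akr1c family itself, and their only call was Akr1c12 in MLL-AF6 (0.59, adjusted p = 0.0299). Hsd11b1, which regenerates active glucocorticoid, rose in all 3, from 1.66 ± 0.25 to 13.9 ± 1.4 RPKM in MLL-AF6 (log2 difference 2.74, adjusted p = 2.28e-09). Hsd17b7, an enzyme of sterol synthesis, rose by 1.16 (adjusted p = 2.22e-05) in MLL-AF9 cells and 1.30 (adjusted p = 1.31e-05) in MLL-AF1p cells, and its 0.49 in MLL-AF6 cells (adjusted p = 0.018) had an adjusted p of 0.0608 without MLL-AF6 MI-2-2 replicate 3. Srd5a3, a reductase of dolichol synthesis, rose by 0.87, 0.29 and 0.32, with a highest adjusted p of 0.00235. Akr1b7, an aldo-keto reductase, fell from 2.72 ± 1.72 to 0.103 ± 0.0236 RPKM in MLL-AF6 (log2 difference -2.24, adjusted p = 0.00211). Its value in MLL-AF9 was -1.29 (adjusted p = 0.0499), a call lost without any 1 of 12 libraries (MLL-AF9 DMSO replicate 2 or 3, MLL-AF6 DMSO replicate 3, or any MI-2-2 library), up to an adjusted p of 0.25 without MLL-AF9 DMSO replicate 2.

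For organic cation transport (8 tested), 1 rose and 1 fell in MLL-AF9 cells, 1 rose and 2 fell in MLL-AF6 cells, and 2 rose and 3 fell in MLL-AF1p cells (medians -0.05, 0.04 and 0.01). Slc22a4, a carrier of ergothioneine, fell by 0.34 in MLL-AF9 cells and by 0.56 in MLL-AF6 cells (log2 differences -0.34 and -0.56, adjusted p = 0.000636 and 6.09e-06). Slc22a15 rose by 0.97 in MLL-AF9 cells and 0.77 in MLL-AF1p cells (adjusted p = 1.8e-06 and 3.52e-05), and in MLL-AF6 by 0.37 (adjusted p = 0.00813), which was lost without MLL-AF6 DMSO replicate 3 (adjusted p = 0.052). The carnitine carrier Slc22a5 had -0.51 in MLL-AF1p (adjusted p = 0.00864, and 0.0512 without MLL-AF1p DMSO replicate 2). Slc22a2 was listed at 0 in all libraries.

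Of 14 myosin light chain genes, partners or regulators of Mylk, 7 rose and 2 fell in MLL-AF9 cells, 3 rose and 3 fell in MLL-AF6 cells, and 3 rose and 4 fell in MLL-AF1p cells (medians 0.17, 0 and 0.05). The other myosin light chain kinases, Mylk2, Mylk3 and Mylk4, had group means of at most 0.23 RPKM. Myh9, the non-muscle myosin heavy chain, rose in all 3 constructs, by 0.61, 0.24 and 0.56 with a highest adjusted p of 0.00128. Myl6b, a light chain, went in MLL-AF9 cells from 22.7 ± 3.81 RPKM down to 7.49 ± 1.36 (-1.54, adjusted p = 7.53e-07) and also fell in MLL-AF6 cells (-0.83, adjusted p = 0.000382). Ppp1cb, the catalytic subunit of myosin phosphatase, fell in MLL-AF6 (-0.82, adjusted p = 2.28e-07) and MLL-AF1p (-0.49, adjusted p = 8.17e-05). In MLL-AF1p the call of Myl6b (-0.43, adjusted p = 0.0349) did not hold, with an adjusted p up to 0.146 without MLL-AF1p DMSO replicate 1 or 3 or any MLL-AF1p MI-2-2 library.

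Of 16 glutathione peroxidase and endoplasmic reticulum redox genes, 7 fell in MLL-AF9 cells, 5 in MLL-AF6 cells and 7 in MLL-AF1p cells, against 2, 3 and 2 that rose (medians -0.17, -0.03 and -0.27). Vkorc1, the vitamin K epoxide reductase, fell in all 3 constructs (-1.30, -0.89 and -0.72, highest adjusted p = 4.41e-06). Ero1l, the oxidase that recharges protein disulfide isomerase, fell from 241 ± 6.74 to 127 ± 4.14 RPKM in MLL-AF1p (-0.92, adjusted p = 0.000253) and in MLL-AF6 (-0.68, adjusted p = 0.00206). Txndc12, a thioredoxin-like protein of the same compartment, fell in MLL-AF1p (-0.74, adjusted p = 0.00165), and its call in MLL-AF9 (-0.52, adjusted p = 0.0125) was lost without MLL-AF9 DMSO replicate 2 (adjusted p = 0.0732). The peroxiredoxin Prdx4 rose in MLL-AF6 (0.96, adjusted p = 0.00111), while its value in MLL-AF1p (-0.56, adjusted p = 0.0379) lost its call without any 1 of the 6 MLL-AF1p libraries (adjusted p up to 0.0977). Gpx7, the closest relative of Gpx8, had a group mean of at most 0.00559 RPKM.

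In the fibroblast growth factor list (12 tested), 4 rose and 2 fell in MLL-AF9 cells, 4 rose and 4 fell in MLL-AF6 cells, and none rose and 5 fell in MLL-AF1p cells (medians 0.13, -0.09 and -0.34). Receptors for Fgf10 were scarce: Fgfr2 was listed at 0 in every group, and Fgfr1, Fgfr3 and Fgfr4 had group means of at most 0.0698 RPKM. The feedback phosphatase Dusp6 rose from 14.7 ± 1.96 to 56.3 ± 3.31 RPKM in MLL-AF9 cells and from 7.05 ± 1.07 to 31.8 ± 5.54 in MLL-AF6 cells (1.90 and 2.09, adjusted p = 3.59e-09 and 1.14e-09). In MLL-AF1p Dusp6 went from 13.9 ± 0.796 to 14.1 ± 0.278 RPKM (0.02, adjusted p = 0.911). Etv5, an ETS factor downstream of these receptors, also rose in MLL-AF9 and MLL-AF6 (1.60 and 1.89, adjusted p = 0.00108 and 0.000274), with -0.50 in MLL-AF1p (adjusted p = 0.252). Spry2, a feedback inhibitor, fell in those same constructs (-0.92 and -0.90, adjusted p = 0.00109 and 0.0013). Differences of these responses between constructs were not tested. Fgf11, an intracellular relative, had -0.72 in MLL-AF6 and -0.83 in MLL-AF1p (adjusted p = 0.0308 and 0.0181), calls lost without MLL-AF6 DMSO replicate 1 or 2 or MLL-AF6 MI-2-2 replicate 2 or 3 (adjusted p up to 0.147), and without MLL-AF1p DMSO replicate 1 or 3 or MLL-AF1p MI-2-2 replicate 2 (up to 0.0763).

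Of 11 Wnt genes tested, 4 rose and 4 fell in MLL-AF9 cells, 2 rose and 4 fell in MLL-AF6 cells, and 1 rose and 1 fell in MLL-AF1p cells (medians 0.03, -0.04 and -0.10). Sfrp2, a secreted relative of Frzb, fell in MLL-AF9 from 1.65 ± 0.724 to 0.255 ± 0.0273 RPKM and in MLL-AF6 from 2.94 ± 0.43 to 0.948 ± 0.481 (-1.46 and -1.29, adjusted p = 3.71e-05 and 0.000126). Sfrp2 was present in MLL-AF9 cells, where Frzb was barely detected. Tcf7, a transcription factor of the pathway, fell in MLL-AF9 (-0.95, adjusted p = 7.86e-05) and was at most 0.399 RPKM in the other groups' means. Lgr4, a receptor for R-spondins, fell in MLL-AF6 (-0.52, adjusted p = 0.000365). Its call in MLL-AF9 (-0.30, adjusted p = 0.0177) was lost without MLL-AF9 DMSO replicate 1 or 3 or MLL-AF9 MI-2-2 replicate 1 (adjusted p up to 0.082), and those of Ctnnb1, the beta-catenin gene, in MLL-AF9 (0.36, adjusted p = 0.0216) and MLL-AF6 (0.32, adjusted p = 0.0365) did not hold: the former was lost without MLL-AF9 DMSO replicate 2 or MLL-AF9 MI-2-2 replicate 1 or 3 (up to 0.122), the latter without MLL-AF6 DMSO replicate 2 or 3 or MLL-AF6 MI-2-2 replicate 1 or 3 (up to 0.124).

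Of 18 retinoic acid genes, 7 rose and 4 fell in MLL-AF9 cells, 4 rose and 7 fell in MLL-AF6 cells, and 5 rose and 4 fell in MLL-AF1p cells (medians 0.09, -0.25 and 0.07). The relatives of Aldh1a3 that also make retinoic acid, Aldh1a1 and Aldh1a2, had group means of at most 0.00583 RPKM, below Aldh1a3 in every DMSO group. Dhrs3, which turns retinaldehyde back to retinol, rose in all 3 constructs (1.66, 1.79 and 1.68, highest adjusted p = 0.000291). Fabp5, which carries fatty acids and retinoic acid, rose from 41.8 ± 10.2 to 386 ± 26.9 RPKM in MLL-AF6 cells and in the other 2 (log2 differences 3.22, 0.80 in MLL-AF9 cells and 1.63 in MLL-AF1p cells, highest adjusted p = 0.00178). Rxra, a partner of the retinoic acid receptors, rose by 1.46, 2.49 and 1.02 (highest adjusted p = 5.67e-05). Stra6, the receptor that takes up retinol, fell in all 3 (-1.18, -1.35 and -1.06, highest adjusted p = 6.9e-05), from 2.76 ± 0.119 to 1.07 ± 0.0794 RPKM in MLL-AF1p. C2cd4b, C2cd4c and C2cd4d, the listed relatives of C2cd4a, had group means of at most 0.167 RPKM and were not tested.

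Genes beside the 8 on the chromosome had smaller differences than the gene they flank, except at Frzb and Aldh1a3 in MLL-AF9. Because the 8 were picked for large falls and their neighbours were not, nothing is read from that. In the gene order of RefSeq on GRCm38.p6, 48 protein-coding genes lie within 3 places of one of the 8, 47 are in the table and 27 were tested. Falls with MI-2-2 numbered 9 in MLL-AF9 cells (33.3%), 14 in MLL-AF6 cells (51.9%) and 12 in MLL-AF1p cells (44.4%), beside 27.9%, 38.9% and 26.3% of all genes; rises numbered 3, 4 and 2 (11.1%, 14.8% and 7.41%, beside 28.5%, 18% and 19.1%). With median centring 9 fell in MLL-AF6 cells (33.3%), beside 30.1% of all genes under the same scaling. The same centring gave 12 in MLL-AF9 cells (44.4%, beside 34.1%) and 12 in MLL-AF1p cells (44.4%, beside 22.8%). Quantile normalization gave 12, 11 and 12 in MLL-AF9, MLL-AF6 and MLL-AF1p (44.4%, 40.7% and 44.4%), beside 32.6%, 32.3% and 24.8% of all genes. No neighbour had a log2 difference below -1.22 in MLL-AF9 cells, -1.52 in MLL-AF6 or -1.33 in MLL-AF1p cells.

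**Figure D4:**
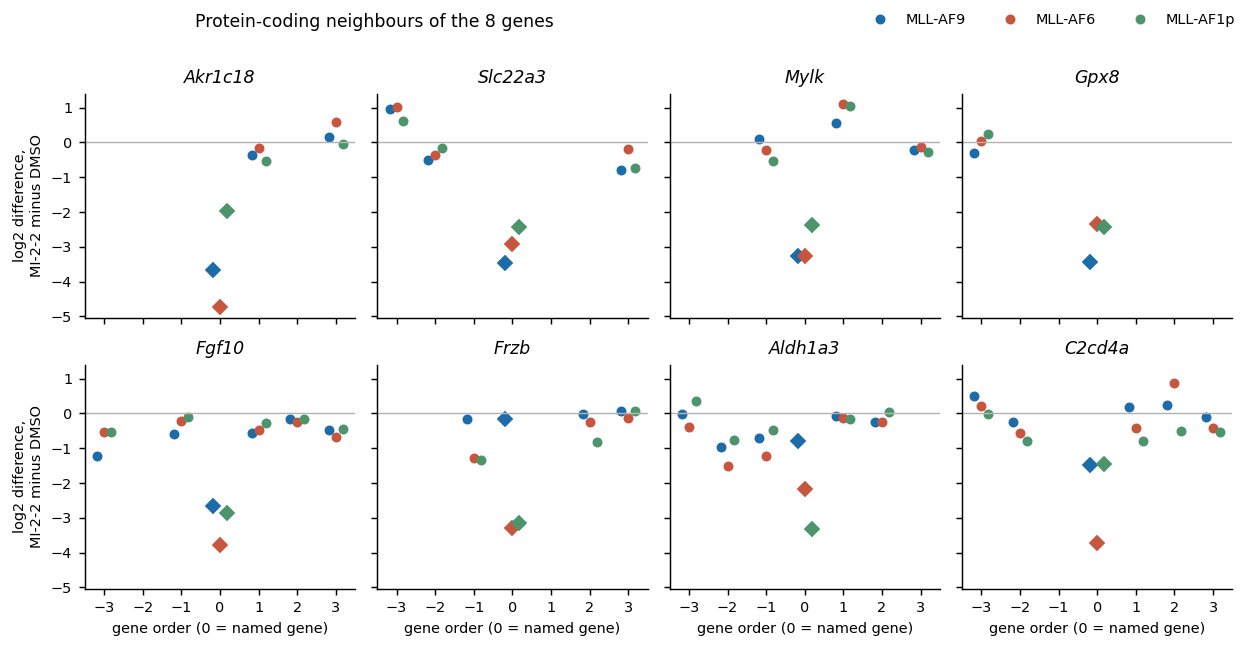
Log2 difference, MI-2-2 minus DMSO, of the tested protein-coding neighbours by their place in the gene order, with circles for neighbours and a diamond at 0 for the gene itself, coloured by construct. Except in Frzb and Aldh1a3 in MLL-AF9, the diamond lies below every neighbour, none of which goes below -1.52. The genes at the diamonds were picked for large falls, so nothing is read from that place.

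Neighbours that passed in 1 direction in all 3 constructs were few. Chsy1, a chondroitin synthase, and Lrrk1, a kinase, lie next to each other before Aldh1a3 and both fell, with log2 differences of -0.96, -1.52 and -0.75 for Chsy1 and -0.71, -1.21 and -0.48 for Lrrk1 in MLL-AF9, MLL-AF6 and MLL-AF1p (highest adjusted p = 7.59e-05). Emb, a membrane glycoprotein gene 3 places from Fgf10, fell from 793 ± 77.6 to 340 ± 29 RPKM in MLL-AF9, with differences of -1.22, -0.54 and -0.52 (highest adjusted p = 3.43e-05). Ptplb (now Hacd2), an enzyme of long-chain fatty acid synthesis next to Mylk, rose by 0.55, 1.10 and 1.06 (highest adjusted p = 5.65e-05). A further predicted gene near Fgf10 fell in all 3. Dnajc10, a chaperone of the endoplasmic reticulum next to Frzb, is named here after its values were seen, because it had the Frzb pattern, and is given with no test: 95.4 ± 18 to 38.8 ± 0.25 RPKM in MLL-AF6 cells and 88.9 ± 2.81 to 35.1 ± 0.84 in MLL-AF1p cells (-1.27 and -1.33), but 30.3 ± 2.42 to 26.9 ± 1.21 in MLL-AF9 cells (-0.17).

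Around Akr1c18, the near relative Akr1c13 was well expressed and did not pass in any construct, at 34.4 ± 6.54 and 30.2 ± 3.29 RPKM in MLL-AF6 (-0.17, adjusted p = 0.57), while Akr1c14 and Akr1c19 were listed at 0. Slc22a2 and Plg beside Slc22a3 had group means of at most 0.0812 RPKM. Sequence shared with other genes was counted because it can split or misplace reads. Of the 50-base windows of the GENCODE transcripts, 0.581% of Akr1c18 were shared with another gene, 8.27% of Slc22a3 (with Plg), 4.56% of Mylk, 1.02% of Fgf10, 1.15% of Aldh1a3 and 7.95% of C2cd4a (with C2cd4b), and 0 of Gpx8 and Frzb. Because the kit leaves the strand unmarked, overlapping genes on opposite strands are not told apart. The overlapping non-coding genes at Slc22a3 and Mylk in the table had group means of at most 0.0101 RPKM. Cdc20b, a protein-coding gene that overlaps Gpx8 in RefSeq, was not found in the table by its symbol, so its level cannot be given. Its part in the Gpx8 values was not tested.

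For each of the 8, the 3 genes with the most similar level over the 18 libraries were found by Pearson correlation of log2(RPKM + 0.5); none was another of the 8. These correlations are a description, since the 18 points fall in 6 groups and share treatment and construct, and the falls of genes found this way are given with no test. Mylk was most like Hpgd (r = 0.993) and Fut8 (0.991). Hpgd, which breaks down prostaglandins, stood at 2660 ± 103 RPKM under DMSO and 137 ± 28 with MI-2-2 in MLL-AF6 (log2 difference -4.29, with -3.97 in MLL-AF9 and -3.30 in MLL-AF1p), far above the RPKM of any of the 8. Slc22a3 was most like St7 (r = 0.990), Tax1bp1 (0.978) and Taf1d (0.978), none of which had a log2 difference below -1.36 (Tax1bp1 in MLL-AF9).

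Akr1c18 was most like the retinoic acid receptor gene Rarg (r = 0.982), Adipor2 (0.974) and Crebzf (0.968). Gpx8 was most like Ssbp2 (0.976), Frmd5 (0.972) and Smyd3 (0.966), with Frmd5 at 4.48 ± 2.32 and 0.344 ± 0.118 RPKM in MLL-AF9 under DMSO and MI-2-2 (-2.45). Fgf10 was most like Rhoj (0.988), Il15ra (0.984) and Deptor (0.978). Frzb was most like Skap2 (0.976), Nog (0.969) and Slc24a5 (0.953). Nog, the secreted BMP antagonist noggin, stood at 9.19 ± 2.05, 2.23 ± 0.425 and 0.345 ± 0.0771 RPKM in MLL-AF6, MLL-AF1p and MLL-AF9 under DMSO, and with MI-2-2 at 0.801 ± 0.154, 0.306 ± 0.0707 and 0.0432 ± 0.0281 (-2.88, -1.75 and -0.63). Aldh1a3 was most like Dmwd (0.985), Glb1l2 (0.966) and Zfp229 (0.965), and C2cd4a like St3gal4 (0.962), Cnot8 (0.958) and Fbxo9 (0.953).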

How the data were processed

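PolyA RNA was read in 18 mouse libraries, 3 in each of 6 groups named by the labels. The deposited values are RPKM per gene, which the authors made from counted reads. CASAVA 1.8.2, Bowtie2 2.0.0.7, HTSeq and edgeR, and the mm9 build, are named in the submitters' processing notes, without their roles. Per the file headers, a gene length stands beside each gene. RPKM times this length was divided by a step fitted to the values of each library. By this, 100% of the values above 0 came out as whole reads within 0.05. The sums of these whole reads, 21.18 to 56.3 M per library, are the counted reads given here.

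Log2(RPKM + 0.5) was fitted with limma 3.58.1 (R 4.3.3), with 1 mean per group over all 18 libraries, 12 residual degrees of freedom and a prior trend, on the 11238 genes of at least 1 RPKM in 3 or more libraries. P-values were adjusted by Benjamini-Hochberg over all of these, and differences between groups are two-sided. The step was tested on simulated data. The 8 genes, the pathway lists and the marker lists were chosen with earlier results of these data known.

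Named pathway genes were those, up to 4 per list, with the largest mean absolute log2 difference among genes that passed in at least 1 construct and reached a group mean of 2 RPKM. Named neighbours passed in all 3 constructs in 1 direction. Predicted genes were counted and not named. A few genes that the naming rules select are not reported here. Gene order and promoters were taken from RefSeq on GRCm38.p6, matched by symbol, and no coordinates were converted. Sharing with other genes was counted over 50-base windows of GENCODE M21 transcripts.

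Libraries of the same group differed by more than sampling noise (chi-square per degree of freedom from 3.95 to 76.1). Same-numbered libraries deviated together, with every correlation above 0.1, in 4 of 15 pairs of groups. Among the compared groups these were MI-2-2 in MLL-AF9 and MLL-AF6 and MI-2-2 in MLL-AF6 and MLL-AF1p, and the pairing comes from the data, not from the labels. Other pairs of groups met this limit only in part. MLL-AF9 and MLL-AF6 under DMSO had correlations of 0.627 and 0.599 for replicates 1 and 2 and -0.0983 for replicate 3. Alternatives were the pseudocount, the filter, median centring, quantile normalization, voom on whole reads, a constant prior variance, the replicate block and leaving out each library.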

Additional observations from a re-analysis of the deposited data

Results flagged for a closer look

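Among the 56 named genes outside the 8, 4 had libraries that moved in opposite, non-overlapping directions with MI-2-2 in different constructs. The differences between constructs were not tested. Ppp1cb had a log2 difference of 0.16 in MLL-AF9 cells (adjusted p by limma = 0.0739, and 0.021 without MLL-AF9 DMSO replicate 1), -0.82 in MLL-AF6 cells and -0.49 in MLL-AF1p cells. Prdx4 had 0.96 in MLL-AF6 and -0.56 in MLL-AF1p. Tcf7 had -0.95 in MLL-AF9 and 0.36 in MLL-AF1p, where its levels were 0.199 and 0.399 RPKM. Skap2, the gene most like Frzb over the 18 libraries, had 0.21 in MLL-AF9 cells, -0.67 in MLL-AF6 cells and -0.66 in MLL-AF1p cells. Groups of 3 libraries are too small to test a single library as standing apart.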

How the results depend on the processing

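No fall of the 8 genes, and no called difference of the 8 or of the named pathway genes, changed direction under the alternatives run. Directions of neighbours and marker genes were not followed there. Of the counts, 1 moved by over 1.5 times: neighbours that fell in MLL-AF6 went from 14 to 9 with median centring, which also took the share of all genes that fell from 38.9% to 30.1%. Leaving out 1 library at a time gave 11 to 14 for that count, 18 to 25 pathway genes that fell in MLL-AF9, 22 to 30 in MLL-AF6 and 21 to 29 in MLL-AF1p. Log2 falls of low genes moved most with the pseudocount and with voom: Aldh1a3 in MLL-AF9 ran from -4.28 to -0.45 and in MLL-AF6 from -5.77 to -1.5, Slc22a3 in MLL-AF9 from -5.89 to -2.7, and Frzb in MLL-AF9 from -1.07 to -0.05. Of the comparisons of the 8 genes between constructs, 27 results under an alternative gained a call and 10 lost one, most of them for Mylk and Aldh1a3. Voom on whole reads called 6206, 6320 and 5791 genes with MI-2-2 in MLL-AF9, MLL-AF6 and MLL-AF1p, against 6339, 6402 and 5103.

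With the replicate block, 6914, 7048 and 5938 genes were called instead. Between constructs under DMSO the 8 genes then had 6, 8 and 6 calls, beside 6712, 7800 and 6525 of all 11238 genes. These are for MLL-AF6 against MLL-AF9, MLL-AF1p against MLL-AF9 and MLL-AF1p against MLL-AF6. With MI-2-2 they had 3, 6 and 4 calls, beside 5623, 6722 and 6656 of all genes, and nothing is read from these counts. The block also added calls where not every same-numbered correlation was above 0.1. For C2cd4a in MLL-AF1p against MLL-AF9 its adjusted p was 0.00346 under DMSO and 0.0032 with MI-2-2. Under DMSO it was 0.0314 for Akr1c18 in MLL-AF6 against MLL-AF9 and 0.0407 for Mylk in MLL-AF1p against MLL-AF9. With MI-2-2 it was 0.0432 for Aldh1a3 in MLL-AF1p against MLL-AF9. Where every correlation was above 0.1, the block changed no call of the 8 but that of C2cd4a in MLL-AF1p against MLL-AF6 with MI-2-2. Depth limits the treated levels of Aldh1a3 and Frzb in MLL-AF9, which rest on 1 to 4 reads per library.

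Small differences that did not pass (adjusted p by limma of 0.605 or more) changed sign under some alternatives, and the cause was not tested. With MI-2-2, leaving out 1 library gave -0.26 to 0.26 for Akr1c18 in MLL-AF1p against MLL-AF9 (0.04 with all libraries), -0.08 to 0.3 for Gpx8 in MLL-AF6 against MLL-AF9 (0.12) and -0.38 to 0.01 for Gpx8 in MLL-AF1p against MLL-AF9 (-0.17). It gave -0.05 to 0.33 for C2cd4a in MLL-AF6 against MLL-AF9 (0.14) and -0.05 to 0.11 for Fgf10 in MLL-AF1p against MLL-AF6 (0.03, and -0.03 with either median centring or quantile normalization). Aldh1a3 in MLL-AF6 against MLL-AF9 went from 0.05 to -0.04 with quantile normalization. Between MI-2-2 and DMSO, leaving out 1 library gave -0.07 to 0.03 for Slc22a4 in MLL-AF1p (-0.02, and 0.02 with median centring) and -0.17 to 0.03 for Tcf7 in MLL-AF6 (-0.05, and 0.03 with median centring). The ranges were -0.11 to 0.01 for Slc22a5 in MLL-AF9 (-0.06), -0.34 to 0.19 for Prdx4 in MLL-AF9 (-0.05), -0.11 to 0.15 for Txndc12 in MLL-AF6 (0.02) and 0 to 0.07 for Dusp6 in MLL-AF1p (0.02).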
